A study of Mus musculus with 2 samples.

Results

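Expression of 10 genes of the Notch pathway was described in the cell classes of 2 mouse glioblastomas: the receptors Notch1, Notch2, Notch3 and Notch4, the ligands Dll1, Dll3, Dll4 and Jag1, and the target genes Hes1 and Hes5. They were chosen by symbol from the 27998 mouse genes of the deposited matrices, and all 10 were found. Both tumours, NPCTKO #1 and NPCTKO #2, called tumour 1 and tumour 2 here, came from C57BL/6 mice 3 months of age and form 1 group with 1 single-cell 3′ RNA library each. They arose after in utero electroporation of a piggyBac transposon carrying Cas9, luciferase, EGFP and guides whose targets include Nf1 and Trp53, known tumour suppressors, so both carry the same targeted genes and no untreated brain was part of the comparison. One host was a Tek-Cre;Ai14 mouse, in which the Tek promoter drives tdTomato labelling of endothelial cells and of most tumour microglia and macrophages. The other was a Tbx18CreERT2/+;Ai14 mouse, in which the mural gene Tbx18 drives the labelling once tamoxifen is given. Neither library is tied to a host in the labels. Cells were sorted before loading, and the gate used for these libraries is not given in the sources used here, so the class sizes carry that sort.

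Notch receptors are single-pass membrane proteins that are cut by ADAM and gamma-secretase proteases when a Delta-like or Jagged ligand on a neighbouring cell pulls on them. The freed intracellular part joins the DNA-binding protein RBPJ and switches on repressors of the Hes and Hey families, which keep neural stem cells and astroglia from turning into neurons. In blood vessels, Dll4 and Notch4 are known for their role in endothelial cells and Notch3 for its role in pericytes and smooth muscle.

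The promoters of Hes5, a Notch target, and Lfng, which codes for a Fringe enzyme that modifies the receptor, are shown because both genes stood higher in astrocyte-like cells than in glioma and their windows held the motif searched. The window of Hey2, another target gene, held 2 matches too, but its difference there did not pass the test used below. The windows of Notch3 and Nrarp, which also stood higher there, held no match. No window is given here for Hey1, Psen2 and Dtx4, the other genes called higher there. The windows come from RefSeq on GRCm38.p6 and run from 250 bases before to 50 bases after the start site, 5′ to 3′ on the gene's strand. Capitals mark each match of the 7-letter RBPJ-type motif GTGGGAA, searched on both strands.
Hes5 (chr4:154960673-154960972, plus strand): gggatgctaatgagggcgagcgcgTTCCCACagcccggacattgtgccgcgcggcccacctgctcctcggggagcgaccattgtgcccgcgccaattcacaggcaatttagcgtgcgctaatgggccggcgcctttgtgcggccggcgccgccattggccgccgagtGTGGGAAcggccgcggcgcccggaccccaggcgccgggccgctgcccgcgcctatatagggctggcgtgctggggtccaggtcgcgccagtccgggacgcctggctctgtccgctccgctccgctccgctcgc
Lfng (chr5:140607091-140607390, plus strand): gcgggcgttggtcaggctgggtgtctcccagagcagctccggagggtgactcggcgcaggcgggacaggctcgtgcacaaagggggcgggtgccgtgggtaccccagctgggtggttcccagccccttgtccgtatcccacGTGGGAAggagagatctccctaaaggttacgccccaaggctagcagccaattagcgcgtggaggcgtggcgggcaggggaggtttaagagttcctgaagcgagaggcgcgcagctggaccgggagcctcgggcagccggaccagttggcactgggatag
The Hes5 window held 2 matches, starting 226 and 83 bases before the start site, and the Lfng window held 1, starting 109 bases before it. Of the 10 genes, 9 were in the promoter table, and Hes5 was the 1 of them with a match. Among all 32851 promoters of this length, 2097 held the motif, which is 6.38%. A match is a run of letters and not a measured binding site, and its absence from a window says nothing about RBPJ elsewhere.

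On GRCm38, the build of the matrices, Notch1 lies on chr2:26457903-26516663, Notch2 on chr3:98013527-98150361, Notch3 on chr17:32120820-32166852 and Notch4 on chr17:34564268-34588503. The ligand genes Dll1 (chr17:15367354-15376872), Dll3 (chr7:28293553-28302238), Dll4 (chr2:119325784-119335962) and Jag1 (chr2:137081456-137116644) follow. Hes1 spans chr16:30064384-30067796 and Hes5 chr4:154960923-154962371. The libraries count transcripts by their 3′ ends over the whole gene, so values are per gene and not per exon or isoform.

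Cells were grouped into 6 classes by raw markers. A cell entered a class when at least 3 of the 6 markers of that class had a unique molecular identifier (UMI, 1 per captured transcript) and together reached 10 UMIs per 10,000, and a cell that passed no gate was called glioma when EGFP reached 50 UMIs per 10,000. This gave 4643 and 4264 glioma cells in tumours 1 and 2, 907 and 230 astrocyte-like cells, 47 and 34 endothelial cells, 4 and 27 mural cells, 206 and 144 oligodendrocytes, and 1254 and 3041 immune cells. The cells that passed no gate and had less EGFP, 4282 and 5451, were left unnamed. Markers that took no part in the gates followed the class names: 5 endothelial markers such as Kdr and Tie1 summed to 41.1 and 19.2 UMIs per 10,000 in endothelial cells and to 0.0445 and 0.0954 in glioma, and 5 mural markers such as Acta2 summed to 41.2 in the mural cells of tumour 2. The 4 mural cells of tumour 1 had no UMI of Acta2 or Tagln, and they entered no test. Mural cells were therefore taken from tumour 2 alone, while the glioma sums in the fit came from both tumours. Oligodendrocytes and astrocyte-like cells also held glioma markers (Sox2, Olig2, Nes, Pdpn, Cspg4 and Pdgfra), whose sum was 6.78 and 5.54 in oligodendrocytes and 8.91 and 7.36 in astrocyte-like cells against 11.1 and 7.75 in glioma, with none of the 6 at 0. EGFP in oligodendrocytes stood at 43.0% and 41.7% of its glioma level. Endothelial cells held the glioma markers at 4.07 and 2.50 and mural cells of tumour 2 at 4.47, again with none at 0. These mural cells also held the immune gate markers at 8.34 and the endothelial gate markers at 3.94. What part tumour cells or other cells have in these classes was not tested.

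The libraries held 14302 and 18596 barcodes and 282961884 and 295366782 UMIs, of which 11380 and 13200 cells were kept, and 51 barcode sequences occurred in both. Median depth in glioma was 18307 and 9962.5 UMIs per cell. EGFP, which immune cells of the host should lack, stood in them at 5.11% and 3.96% of its glioma level. That share is a rough measure of glioma RNA in their droplets, free or with a second cell. Glioma was gated on high EGFP, at 165 and 219 UMIs per 10,000 against 24.8 and 19.1 in the unnamed cells. The EGFP share therefore sets no upper limit for other genes. Trp53 and Nf1 transcripts were detected in glioma in both tumours, which checks nothing, since a 3′ count does not see a small edit. Levels below are UMIs of a gene summed over a class per 10,000 UMIs of that class, with 95% Poisson intervals, which cover counting error only. They compare classes for 1 gene, never 1 gene with another. Each class has 1 sum per tumour, so the 2 tumours are the replicates (n = 2).

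**Figure D1:**
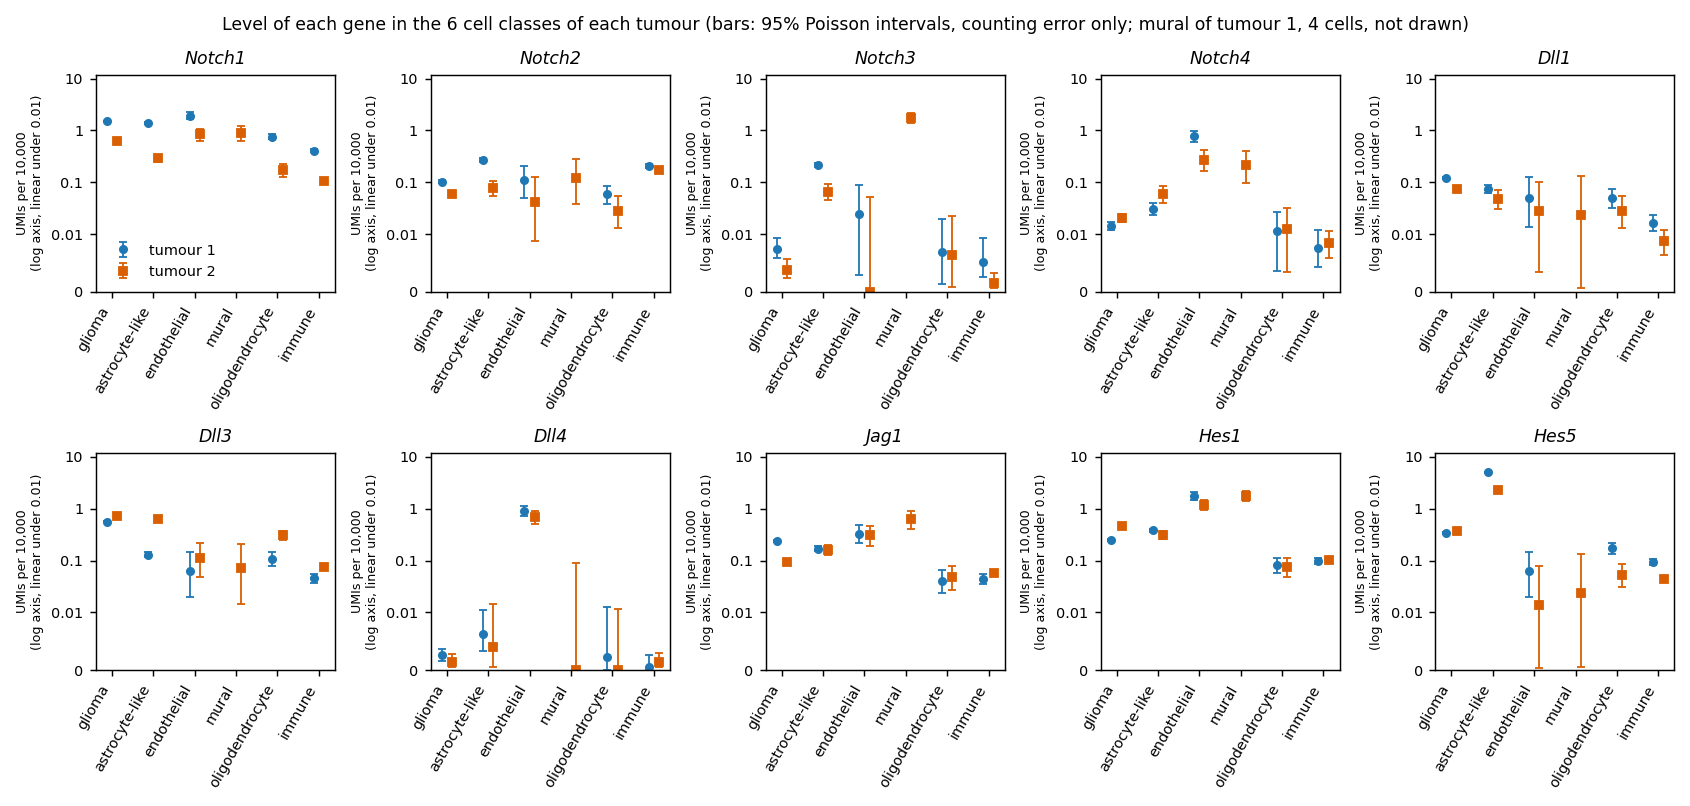
Level of each of the 10 genes (UMIs per 10,000, log axis that is linear under 0.01) in 6 cell classes of tumour 1 (circles) and tumour 2 (squares), with 95% Poisson intervals. The 4 mural cells of tumour 1 are not drawn. Notch3 was highest in mural cells, Dll4 in endothelial cells and Hes5 in astrocyte-like cells, while Notch1 was spread over all 6 classes.

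Among the receptors, Notch1, the most widely used of the family, was found in every class. Its level was 1.496 (1.47 to 1.52) in glioma of tumour 1 and 0.622 (0.602 to 0.643) in tumour 2. Endothelial cells held 1.94 (1.65 to 2.27) and 0.837 (0.637 to 1.08), astrocyte-like cells 1.38 and 0.290, oligodendrocytes 0.759 and 0.171, and immune cells 0.410 and 0.106, with 0.885 in mural cells of tumour 2. In tumour 1 the order ran from endothelial cells through glioma, astrocyte-like cells and oligodendrocytes to immune cells, with no overlap of neighbouring intervals. In tumour 2 the order was the same, with mural cells at its head, and the intervals of mural cells, endothelial cells and glioma overlapped. Tumour 1 stood above tumour 2 in every class tested, by 2.32-fold in endothelial cells, 2.40-fold in glioma, 3.87-fold in immune cells, 4.44-fold in oligodendrocytes and 4.75-fold in astrocyte-like cells. For scale, 11.5% of 13835 genes with 20 UMIs or more in glioma of both tumours had a ratio at or above that of Notch1 in glioma, where the median ratio was 1.31. With 1 library a tumour, this difference has no test.

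Notch2 had its highest level in a different class in each tumour. In tumour 1 astrocyte-like cells held 0.264 (0.242 to 0.289) and immune cells 0.209 (0.190 to 0.229), and in tumour 2 immune cells held 0.172 (0.160 to 0.185) and astrocyte-like cells 0.0775 (0.0551 to 0.106). Glioma stood at 0.103 and 0.0607, and mural cells of tumour 2 at 0.120 from 5 UMIs. Within the immune class, myeloid cells held 0.224 and 0.178, and lymphoid cells held 0.105 and 0.141. The intervals of myeloid and lymphoid cells did not overlap in tumour 1 and overlapped in tumour 2.

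Notch3, known from pericytes and smooth muscle, was the receptor with the widest spread between classes. Mural cells of tumour 2 held 1.77 (1.39 to 2.22) from 74 UMIs, and glioma held 0.00372 (0.00231 to 0.00569) from 21 UMIs. The 4 mural cells of tumour 1 gave 8 UMIs, a level of 5.14 (2.22 to 10.1), against 0.00740 in glioma. Astrocyte-like cells came next, at 0.214 (0.194 to 0.236) and 0.0656 (0.0452 to 0.0921), which was 28.9-fold (22.5 to 37.7) and 17.6-fold (9.89 to 32.0) above glioma of the same tumour. Endothelial cells gave 2 UMIs in tumour 1 and none in tumour 2, where 3 UMIs would be a level of 0.0425. Glioma, oligodendrocytes and immune cells overlapped in both tumours. The 5 mural markers outside the gate summed to 0.405 and 1.33 in astrocyte-like cells and to 0.319 and 0.435 in glioma, with none at 0 in tumour 1 and 1 of 5 at 0 in the astrocyte-like cells of tumour 2, and their part in the Notch3 difference was not tested.

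Notch4, an endothelial receptor, held 0.778 (0.597 to 0.995) in endothelial cells of tumour 1 and 0.269 (0.162 to 0.421) in tumour 2. Mural cells of tumour 2 held 0.215 (0.0984 to 0.408) from 9 UMIs, which overlapped the endothelial value. Glioma held 0.0146 and 0.0206. Astrocyte-like cells lay at 0.0305 and 0.0597, above glioma by 2.09-fold (1.51 to 2.85) and 2.90-fold (1.87 to 4.36), and immune cells lay below glioma, at 0.00754 and 0.00838. Oligodendrocytes, with 5 and 4 UMIs, overlapped both.

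The ligands fell into 3 patterns. Dll1 and Dll3, ligands of neural progenitors, were highest in glioma among the 6 classes in both tumours. Dll1 held 0.121 (0.115 to 0.129) in glioma of tumour 1 and 0.0756 (0.0686 to 0.0831) in tumour 2, against 0.0747 and 0.0477 in astrocyte-like cells, 0.05002 and 0.0285 in oligodendrocytes, and 0.0165 and 0.00883 in immune cells. Astrocyte-like cells and oligodendrocytes were neighbours whose intervals overlapped in both tumours. Endothelial cells gave 4 and 2 UMIs of Dll1 and mural cells of tumour 2 gave 1.

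Dll3, an unusual Delta-like protein that stays largely inside the cell, held 0.566 (0.551 to 0.581) and 0.718 (0.696 to 0.741) in glioma. In astrocyte-like cells it was 0.131 (0.115 to 0.148) in tumour 1 and 0.640 (0.572 to 0.714) in tumour 2, which is 4.33-fold (3.81 to 4.93) and 1.12-fold (1.00 to 1.26) below glioma. The level in cells that passed no gate was 0.357 and 0.870, in tumour 2 above that of glioma. Oligodendrocytes held 0.109 and 0.310, endothelial cells 0.0617 and 0.113 from 5 and 8 UMIs, and immune cells 0.0457 and 0.0766. The immune levels were 8.07% and 10.7% of those of glioma, about the same in lymphoid cells (7.30% and 11.9%), beside 5.11% and 3.96% for EGFP. EGFP was the glioma gate, and Hes5 stood in lymphoid cells at 34.4% and 10.4% of its glioma level. The part of glioma RNA in the immune level of Dll3 was not tested.

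Dll4, the tip cell ligand of growing vessels, had its highest level in endothelial cells in both tumours. Endothelial cells held 0.913 (0.717 to 1.15) from 74 UMIs and 0.695 (0.514 to 0.919) from 49 UMIs. Glioma held 0.00253 (25 UMIs) and 0.00142 (8 UMIs), and mural cells of tumour 2 had none, where 3 UMIs would be 0.0717. In tumour 2 endothelial cells stood at least 9.69-fold above mural cells by that limit. Astrocyte-like cells gave 12 and 2 UMIs, immune cells 1 and 6, and oligodendrocytes 1 and 0.

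Jag1, a ligand of vessel walls as well as of neural cells, was highest in mural cells of tumour 2 at 0.622 (0.406 to 0.911), followed by endothelial cells at 0.333 (0.220 to 0.485) and 0.312 (0.195 to 0.472). Mural and endothelial intervals overlapped in tumour 2. Glioma held 0.242 in tumour 1 and 0.0937 in tumour 2, a 2.58-fold difference (2.35 to 2.84), whereas astrocyte-like cells held 0.168 and 0.161. Astrocyte-like cells thus lay below glioma in tumour 1 and above it in tumour 2. Lymphoid cells were lowest, at 0.0127 and 0.0206, and myeloid cells held 0.0504 and 0.0661.

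The targets divided between vessels and astroglia. Hes1, a repressor that answers to Notch and to other signals, held 1.78 (1.499 to 2.09) and 1.19 (0.950 to 1.48) in endothelial cells and 1.77 (1.39 to 2.22) in mural cells of tumour 2. Glioma held 0.246 and 0.476 and astrocyte-like cells 0.383 and 0.312, so their order turned between the tumours. Oligodendrocytes at 0.0819 and 0.0759 and immune cells at 0.0970 and 0.103 overlapped. The intervals of endothelial and mural cells, neighbours at the top in tumour 2, overlapped.

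Hes5, the Notch target of neural stem cells and astroglia, was highest in astrocyte-like cells. They held 5.11 (5.01 to 5.21) in tumour 1 and 2.25 (2.12 to 2.39) in tumour 2. Glioma held 0.342 (0.330 to 0.354) and 0.369 (0.353 to 0.385), which is 14.9-fold (14.4 to 15.5) and 6.11-fold (5.68 to 6.58) less. Endothelial cells had 5 UMIs and 1 UMI, and mural cells of tumour 2 had 1. Hes1 and Hes5 thus had their highest levels in different classes, vessel cells for Hes1 and astrocyte-like cells for Hes5. Oligodendrocytes held Hes5 at 0.173 and 0.0538 and immune cells at 0.0937 and 0.0441.

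Shares of cells with a UMI were read at equal depth. After thinning each cell to 2000 UMIs, Hes5 was found in 49.9% and 14.4% of astrocyte-like cells against 5.51% and 5.05% of glioma cells, and without thinning in 78.7% and 41.7% against 24.7% and 14.3%. Lymphoid cells, which should lack Hes5, had it in 1.96% and 1.15% when thinned, at median depths of 10073.5 and 8494 UMIs, while the astrocyte-like cells had median depths of 15168 and 18414.5. Dll4 was found in 16.4% and 14.5% of endothelial cells when thinned, and in 25 of 47 and 13 of 34 without thinning. It was in 0 of 256 and 0 of 501 lymphoid cells, which allows shares of cells with a UMI of up to 1.17% and 0.599% by a limit of 3 counts, and says nothing of transcripts that were not captured. Notch3 was found in 33.9% of mural cells of tumour 2 when thinned (22 of 27 without) and in 0.125% and 0.127% of glioma cells. Dll3 was in 10.7% and 12.6% of thinned glioma cells, and in 0.957% and 2.03% of thinned lymphoid cells.

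**Figure D2:**
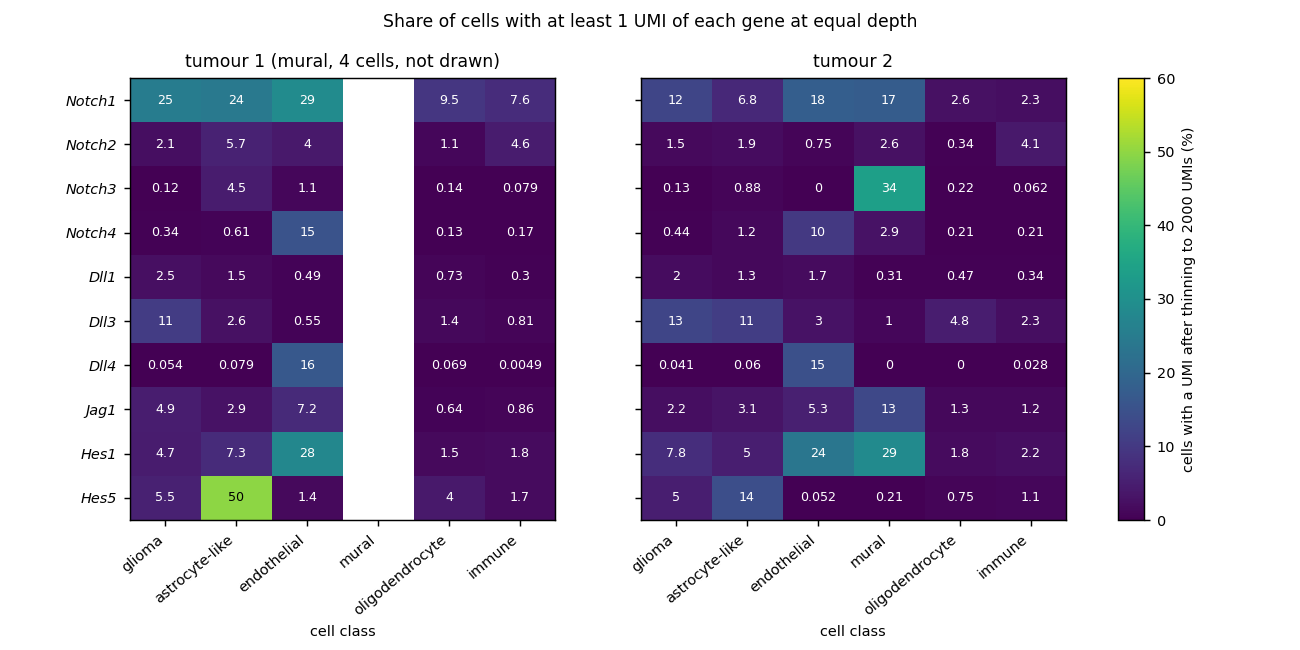
Share of cells with at least 1 UMI of each gene after each cell is thinned to 2000 UMIs (colour and number, percent), by class in tumour 1 (left) and tumour 2 (right). Hes5 in astrocyte-like cells, Hes1 in endothelial and mural cells, and Dll4 and Notch4 in endothelial cells stood out in both panels where drawn.

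Class sums were then compared with edgeR's quasi-likelihood test over 14951 genes in 11 sums, with the tumour as a block and Benjamini-Hochberg adjustment over all genes tested. All 10 genes passed the filter on low counts. Between astrocyte-like cells and glioma, 2 of the 10 were higher and none was lower, where 5.17% of all genes were higher and 3.23% lower. At an unadjusted p under 0.05, 6 of the 10 differed, but the share over all genes at that threshold is not given here. The percentages above do not apply to that count. The 2 were Notch3, at a log2 fold change of 4.62 (SE 0.41, adjusted p = 0.00047), and Hes5, at 3.25 (SE 0.37, adjusted p = 0.0011). Without the tumour block Hes5 had an adjusted p of 0.058. Notch2 (1.04, adjusted p = 0.087) and Dll3 (-1.02, adjusted p = 0.14) did not pass. The median over the 10 genes was 0.57 beside 0.03 over all genes.

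Between endothelial cells and glioma, 3 of the 10 were higher and 2 lower, where 11.4% and 10.2% of all genes were. Dll4 rose by 8.74 on the log2 scale (SE 0.55, adjusted p = 7.2e-06), Notch4 by 5.04 (SE 0.57, adjusted p = 0.00022) and Hes1 by 2.16 (SE 0.35, adjusted p = 0.0017). Dll3 fell by 2.89 (SE 0.55, adjusted p = 0.0047) and Hes5 fell by 3.26 (SE 0.63, adjusted p = 0.0049). The direction of all 5 was the same in both tumours, and without the tumour block Dll3 had an adjusted p of 0.11. The endothelial class held EGFP at 16.6% and 40.5% of the glioma level. Leaving out its EGFP-high cells kept 5 calls, 3 higher and 2 lower, beside 1696 and 1897 of 15058 genes. The median over the 10 genes was 0.80 beside -0.25 over all genes.

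Between mural cells and glioma in tumour 2, 4 of the 10 were higher and 1 lower, where 5.29% and 2.86% of all genes were. These rest on 27 cells of 1 tumour, whose spread the fit takes from the other classes. Notch3 rose by 9.19 (SE 0.52, adjusted p = 1.4e-05), Hes1 by 2.34 (SE 0.42, adjusted p = 0.0073), Notch4 by 3.65 (SE 0.88, adjusted p = 0.033) and Jag1 by 2.15 (SE 0.56, adjusted p = 0.043) on the log2 scale. Jag1 had an adjusted p of 0.054 under a mitochondrial limit of 10% and of 0.053 without high-EGFP cells in the other classes, and Notch4 had 0.053 with a glioma EGFP threshold of 20. Dll3 was the lower gene (adjusted p = 0.031), with 3 UMIs in mural cells, a ratio to glioma of tumour 2 of 0.0998 (0.0206 to 0.292, counting error only). Without the tumour block Jag1 had an adjusted p of 0.080 and Dll3 of 0.34. The median over the 9 genes with a UMI in both classes was 1.14 beside -0.37 over all genes.

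Between oligodendrocytes and glioma none of the 10 was higher and 6 were lower, where 6.15% and 6.49% of all genes were. On the log2 scale Hes1 fell by 2.13 (SE 0.37, adjusted p = 0.0055), Jag1 fell by 1.82 (SE 0.44, adjusted p = 0.023), Hes5 fell by 1.79 (SE 0.40, adjusted p = 0.016), Dll3 fell by 1.77 (SE 0.40, adjusted p = 0.019), Notch1 fell by 1.35 (SE 0.30, adjusted p = 0.017) and Dll1 fell by 1.28 (SE 0.34, adjusted p = 0.037). Without the tumour block 1 of the 10, Hes1, passed. Dll1 had an adjusted p of 0.055 with DESeq2, 0.061 under a mitochondrial limit of 10%, 0.093 without doublet removal and 0.17 with stricter gates. Jag1 had 0.11 without doublet removal, and Hes5 had 0.052 with stricter gates. The median over the 10 genes was -1.31 beside -0.13 over all genes.

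Between immune cells and glioma 1 of the 10 was higher and 6 lower, where 22.2% and 28.0% of all genes were. Notch2 rose by 1.95 (SE 0.33, adjusted p = 0.00073). The 6 lower genes were those that were lower in oligodendrocytes, led by Dll3 at -2.83 (SE 0.40, adjusted p = 0.00026) and Dll1 at -2.33 (SE 0.32, adjusted p = 0.00019), and the 2 comparisons share the glioma sums. Jag1, at -0.98, had an adjusted p of 0.048 and lost its call under 7 of 9 refits, with adjusted p from 0.053 to 0.11. Notch1, at -1.58, lost its call without the tumour block (adjusted p = 0.28). The median over the 10 genes was -1.09 beside -0.17 over all genes.

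Between endothelial and mural cells 1 of the 10 was higher and 1 lower, where 1.30% and 1.81% of all genes were. Dll4 was the endothelial gene (adjusted p = 0.015) and Notch3 the mural gene (adjusted p = 0.00038). Both had 0 UMIs in the other class in tumour 2, and by a limit of 3 UMIs Notch3 stood at least 41.6-fold higher in mural than in endothelial cells there. Notch4, Jag1 and Hes1 had adjusted p of 0.51, 0.48 and 0.93, and the ratio of endothelial to mural cells in tumour 2 was 1.25 (0.540 to 3.14) for Notch4, 0.502 (0.271 to 0.921) for Jag1 and 0.673 (0.487 to 0.933) for Hes1, by counting error alone.

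**Figure D3:**
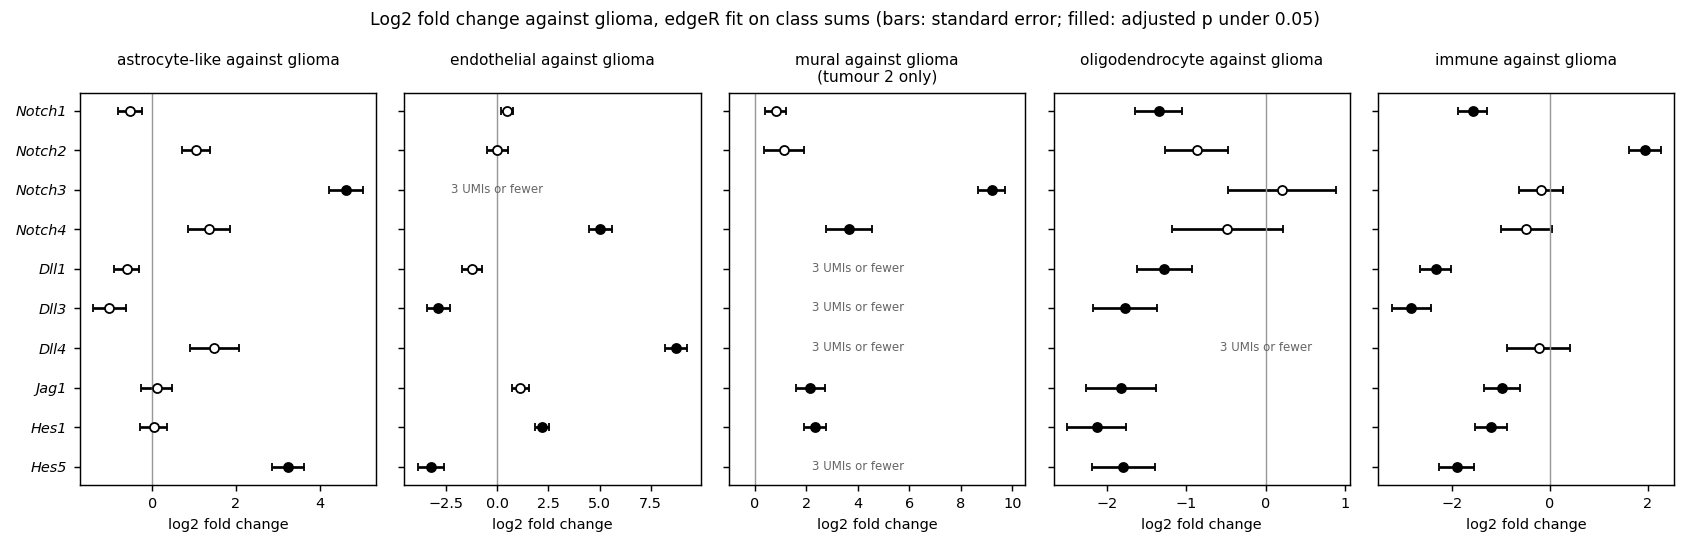
Log2 fold change of each gene against glioma in 5 classes, from the edgeR fit on class sums, with standard errors (filled points had an adjusted p under 0.05, open points did not). Genes with 3 UMIs or fewer in the class are named without a point, and mural cells are from tumour 2 only.

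A wider list of 42 genes of the pathway was set beside them, of which 41 passed the filter: other ligands, the proteases that cut the receptor, the Fringe and other sugar transferases that tune it, trafficking and ubiquitin genes, the nuclear complex, and other targets with proneural genes. In astrocyte-like cells 5 were higher than in glioma and none lower, beside 5.17% and 3.23% of all genes, and without the tumour block 0 were called. These included Lfng (log2 fold change 3.44, adjusted p = 0.0022), a Fringe transferase, and 2 target genes, Nrarp (2.66, adjusted p = 0.0029), a feedback inhibitor, and Hey1 (2.32, adjusted p = 0.0033). The level of Lfng was 0.545 and 0.159 in astrocyte-like cells against 0.0411 and 0.0238 in glioma. Psen2, a gamma-secretase subunit, stood at 0.93 (adjusted p = 0.043), and lost its call with stricter gates, under the 10% mitochondrial limit, without high-EGFP cells in the other classes and without the tumour block. The 41 genes had a median of 0.12.

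In endothelial cells 8 of the 41 were higher than in glioma and 4 lower, beside 11.4% and 10.2% of all genes. Jag2, a Jagged ligand, led with 5.86 (adjusted p = 0.0020) and levels of 0.383 and 0.199 against 0.0116 and 0.00124. Mfng, another Fringe, followed with 4.18 (adjusted p = 0.00057) and Nrarp with 2.47 (adjusted p = 0.0021). Dner, a neuronal ligand, fell by 2.57 (adjusted p = 0.0033). In mural cells of tumour 2, 3 of the 41 were higher and 4 lower, beside 5.29% and 2.86% of all genes. Heyl, a Hey family repressor, stood at 6.46 (adjusted p = 0.00034), with a level of 1.12 against 0.0110 in glioma, and the noncanonical ligand Dlk1 stood at 6.00 (adjusted p = 0.0073), with 5.86 against 0.0451. Dner and the ubiquitin ligase gene Dtx1 had 0 UMIs in mural cells, and glioma stood at least 3.52-fold and 2.31-fold higher by a limit of 3 UMIs.

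In oligodendrocytes 1 of the 41 was higher and 3 lower, beside 6.15% and 6.49% of all genes, a share near or under the background. Psen2 stood at 1.04 (adjusted p = 0.023), Dtx4, a Deltex ubiquitin ligase gene, fell by 1.30 (adjusted p = 0.017), and the coactivator gene Maml2 fell by 1.11 (adjusted p = 0.029). In immune cells 11 were higher and 12 lower, beside 22.2% and 28.0% of all genes, a share near the background. Aph1c, a gamma-secretase subunit, stood at 3.42 (adjusted p = 0.0017) and Lfng at 3.24 (adjusted p = 0.00021), and Dlk1 fell by 3.15 (adjusted p = 0.013). Between endothelial and mural cells 1 was higher and 3 lower, beside 1.30% and 1.81% of all genes. Mfng, with 0 UMIs in mural cells of tumour 2, was at least 11.5-fold higher in endothelial cells, Dlk1 was at least 138-fold higher in mural cells, Heyl (-6.34, adjusted p = 0.0040) had 2 UMIs in endothelial cells and 47 in mural cells, and the Deltex gene Dtx3 fell by 1.97 (adjusted p = 0.031).

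Within glioma, ligands and targets were next read in cells that carried at least 2 genes of 1 of 4 programmes, summing to 5 UMIs per 10,000 or more, each against the other glioma cells of the same tumour. These are ratios of cells within 1 library, given with counting intervals and no test. In cells with Gpr17 and Neu4, markers of committed oligodendrocyte precursors (678 and 99 cells), Hes1 was at 0.0639 and 0.131 against 0.279 and 0.484 in the other cells, ratios of 0.229 (0.185 to 0.280) and 0.271 (0.160 to 0.428). Dll1 was higher there in both tumours, by 1.30-fold and 2.93-fold, and Hes5 lower, at ratios of 0.661 and 0.666. Cells with the interferon-induced genes Cxcl10 and Ifi47 (475 and 1367 cells) had the other order for both targets, with Hes1 ratios of 2.43 and 1.28 and Hes5 ratios of 2.01 and 1.65. Dll3 ratios were 0.569 and 0.751 there, and 0.924 (0.857 to 0.995) and 1.72 in the cells with Gpr17 and Neu4, so in tumour 1 Dll3 lay under 1 in both. In cells with Dcx and Sox11, genes of immature neurons (1008 and 61 cells), Hes1 stood at a ratio of 0.389 (0.346 to 0.437) in tumour 1 and 1.02 (0.744 to 1.35) in tumour 2. In cells with cycling genes (856 and 691 cells) Hes1 ratios were 0.521 and 0.615, while Hes5 went down to 0.552 in tumour 1 and up to 1.51 in tumour 2. Notch1 ratios for the 4 programmes lay between 0.917 and 1.25. Depth differed too: the cells with Cxcl10 and Ifi47 had a median of 15690 UMIs in tumour 2 against 7855 in the others, and its part was not tested. In cells with the cartilage gene Col2a1 and Wfdc12 (6 and 266 cells), Hes1 had a ratio of 0.429 (0.328 to 0.550) in tumour 2, at a median of 3320 UMIs.

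**Figure D4:**
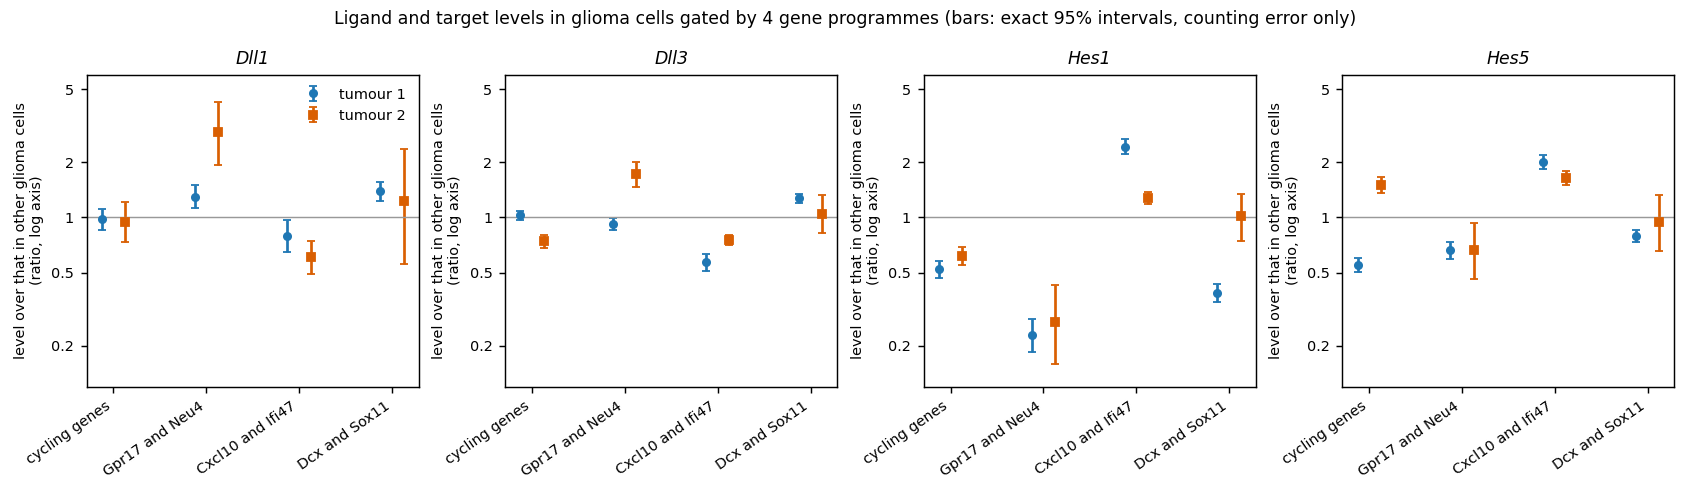
Ratio of the level of Dll1, Dll3, Hes1 and Hes5 in glioma cells with each of 4 gene programmes to that in the other glioma cells of the same tumour (log axis, exact 95% intervals for counting error). Of the 4 programmes, Hes1 was lowest in cells with Gpr17 and Neu4 and highest in cells with Cxcl10 and Ifi47 in both tumours.

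Glioma cells of 5000 UMIs or more were also split by whether they held a UMI of a ligand. Cells with a UMI of Dll3 held Hes1 at 0.135 (0.126 to 0.145) in tumour 1 and 0.304 (0.285 to 0.324) in tumour 2, and cells without one at 0.415 (0.395 to 0.436) and 0.762 (0.725 to 0.8001). For Dll1 the Hes1 levels were 0.146 and 0.256 with a UMI and 0.281 and 0.526 without. Cells with a UMI of Dll3 were deeper, with medians of 22306 and 18914 UMIs against 17620.5 and 14268. In cells of 15000 to 25000 UMIs, where medians were 19598 and 19691 against 19235 and 18691.5, Hes1 was 3.06-fold (2.61 to 3.60) and 2.05-fold (1.74 to 2.41) lower in cells with a UMI of Dll3, and 2.47-fold and 1.56-fold lower in those with a UMI of Dll1. Hes5 was 1.97-fold (1.72 to 2.25) lower with Dll3 in tumour 1, and in tumour 2 its ratio of 0.844 (0.690 to 1.03) had an interval that held 1. With Dll1, Hes5 went down in tumour 1 (ratio 0.565) and up in tumour 2 (ratio 1.52). The Notch1 ratios within that band ran from 0.904 to 1.05, and all 4 intervals held 1.

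**Figure D5:**
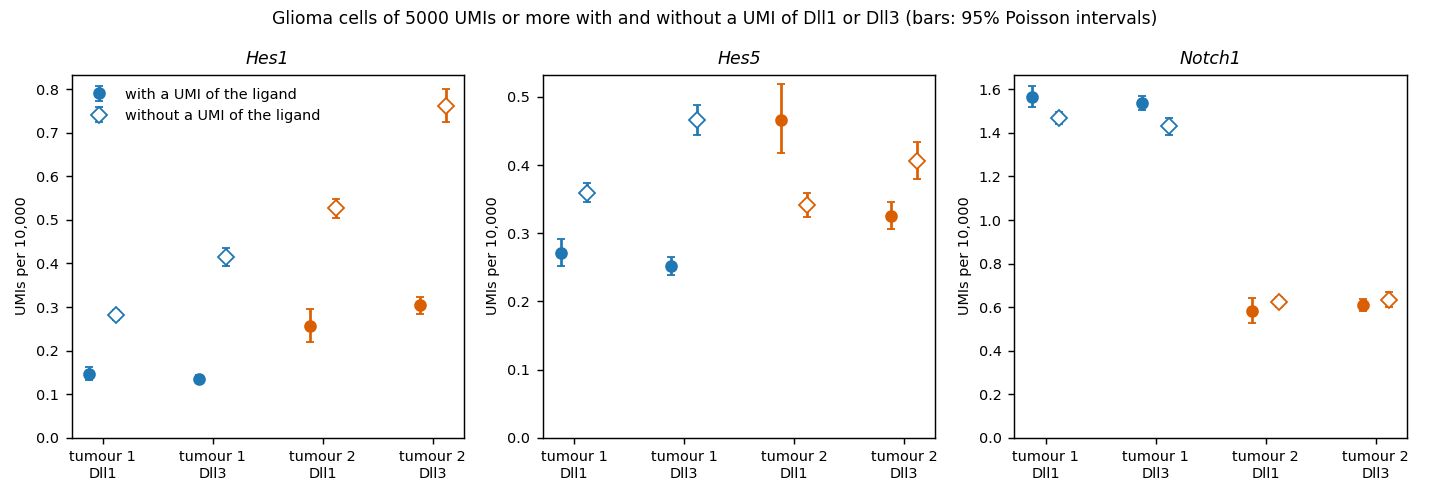
Level of Hes1, Hes5 and Notch1 (UMIs per 10,000, 95% Poisson intervals) in glioma cells of 5000 UMIs or more with (filled) and without (open) a UMI of Dll1 or Dll3, in each tumour. Hes1 was lower in the cells with the ligand in all 4 splits, while Hes5 was higher with Dll1 in tumour 2.

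The astrocyte-like class was not uniform. In tumour 2, its 68 EGFP-high cells held Hes5 at 5.68 (5.32 to 6.06), Notch3 at 0.144 and Notch2 at 0.187, and its 162 other cells held 0.656 (0.573 to 0.748), 0.0292 and 0.0262. Dll3 ran the other way there, at 0.494 against 0.709. The mural markers moved with Notch3 in tumour 2: those outside the gate summed to 2.77 and 0.653 in the EGFP-high and other cells (1 and 2 of 5 at 0), and those of the gate to 0.187 and 0.0379 (3 and 1 of 6 at 0), and their part was not tested. In tumour 1 the 312 EGFP-high cells held Hes5 at 3.90 and Notch3 at 0.167, and the 595 others 5.94 and 0.246. The order of the EGFP-high and other cells in Hes5 therefore turned between the tumours. The mural markers did not move with Notch3 in tumour 1. Those outside the gate summed to 0.7195 and 0.1885 in its EGFP-high and other cells, and those of the gate to 0.1261 and 0.1307. Astrocyte markers outside the gate, such as Gja1 and Gfap, summed to 18.4 and 11.7 in the EGFP-high and other cells of tumour 2 and to 27.1 and 37.9 in tumour 1, the same order as Hes5 in each. The part of astrocyte identity in the Hes5 difference was not tested. The 63 glioma cells of tumour 1 with Egfr and Sox9, genes of astroglial progenitors, held Hes5 at 1.49, against 0.326 in the other glioma cells, and Notch3 at 0.0766 against 0.00647.

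The 15 and 4 cells that passed both the endothelial and the mural gate were kept out of both classes. They had median depths of 34843 and 48457 UMIs, against 11388 and 11967 in endothelial cells, and held genes of both: Notch3 at 1.14 and 0.367, Dll4 at 1.83 and 0.628, and Hes1 at 2.67 and 3.25. Whether they were cell pairs was not tested.

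The genes most like each of the 10 were those with the highest Pearson r of log2 library-scaled levels over the 11 class sums, given as a description, since the sums share 2 libraries. Dll4 ran with Ism1, Edn3 and Myct1 (r of 0.999, 0.998 and 0.997), Notch3 with Rgs4, Ccdc3 and Gm14964 (0.965 to 0.947), Notch4 with Foxc1, Pttg1ip and Apcdd1 (0.974 to 0.969), and Hes1 with Erbb2, Tead2 and Ctgf (0.970 to 0.968). Hes5 ran with Gm266, Dbp and Slc7a10 (0.976 to 0.972), Dll1 with Hdgfrp3, Nap1l2 and Slc35f1 (0.981 to 0.967), and Dll3 with Thoc7, Lypd1 and 1700086L19Rik (0.971 to 0.952). Jag1 ran with Ebf1, Lama1 and Isca1 (0.953 to 0.938), Notch1 with Zfp820, Zbtb44 and Ap1ar (0.963 to 0.956), and Notch2 with Nhlrc3, Dtx4 and Rab8b (0.923 to 0.913). Some of these genes were scarce, so their r can rest on few UMIs. The highest library-scaled level (CPM) was 7.17 for Lama1, 9.56 for Ccdc3 and 9.87 for Zfp820 and Erbb2, while others, such as Ebf1 at 457, reached far more. Dll4 was high in the endothelial sums alone, so its r values rest largely on those sums.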

How the data were processed

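Single-cell 3′ RNA libraries of 2 tumours (V2 kit) were used. The authors aligned reads to mm10 with Cell Ranger 4.0.0, and the deposited matrices hold raw UMI counts per gene and barcode, not normalized. Genes and lists were chosen with earlier results of these data known. Cells needed 500 genes, under 20% mitochondrial and under 5% haemoglobin UMIs. Scrublet's own threshold marked 0 cells in either library, and top-scoring cells, 1470 and 2307, were taken out instead (0.8% for each 1000 barcodes). Classes were gated on raw markers, counts were summed per class and tumour, and sums of 10 cells or more (11 sums, not the 12 planned, since tumour 1 had 4 mural cells) were fitted with edgeR 4.0.16 (TMM, filterByExpr, glmQLFit, class plus tumour, 4 residual degrees of freedom, R 4.3.3), with gate markers not tested. A call is an adjusted p under 0.05. The tumour number marks 1 animal and 1 library. Deviations of 5 classes correlated within a tumour (10 pairs, r from 0.337 to 0.647), which cannot tell the animal from the library. The edgeR script was tested on simulated data. Intervals are exact Poisson (1 level), exact conditional (ratios) or Clopper-Pearson (shares), at 95%, with a floor of 3 counts. Thinned shares are expected shares at 2000 UMIs without replacement, in cells that deep. All 10 genes are named. Of the other pathway genes, up to 4 per comparison are named, those called with the largest log2 fold change and the same direction in both tumours (for mural cells, tumour 2), and for each gene the 3 most correlated genes. Some genes that this rule names are not reported here. Alternatives were DESeq2 1.42.0, no filter, no block, stricter gates, no doublet removal, a 10% mitochondrial limit, no EGFP-high cells in 3 classes, each tumour alone and thinning to 1000 UMIs, and, added after seeing the data, a glioma EGFP threshold of 20 and glioma cells of 5000 UMIs or more.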

Additional observations from a re-analysis of the deposited data

Results flagged for a closer look

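The order of astrocyte-like cells and glioma turned between the tumours for 2 of the 10 genes, with counting intervals on opposite sides of 1. The difference between the tumours was not tested because each has 1 library. The share of all genes that turn in this way is not given here, so the count of 2 cannot be called unusual. For Jag1 the ratio of astrocyte-like cells to glioma was 0.696 (0.618 to 0.783) in tumour 1 and 1.72 (1.34 to 2.18) in tumour 2. For Hes1 it was 1.56 (1.43 to 1.70) in tumour 1 and 0.656 (0.555 to 0.771) in tumour 2. In both genes the glioma level moved more between the tumours than that of the astrocyte-like cells, by 2.58-fold for Jag1 and to a ratio of 0.516 for Hes1. The turn was read against EGFP-high glioma only. Cells that passed no gate and had less EGFP held Jag1 at 0.0911 and 0.106 and Hes1 at 0.186 and 0.154. Astrocyte-like cells stood above them in both tumours, at 0.168 and 0.161 for Jag1 and 0.383 and 0.312 for Hes1.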

How the results depend on the processing

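Without the tumour block (no replicate block), the common dispersion rose from 0.0537 to 0.174, and fewer genes passed: of the 10 genes, 1 in astrocyte-like cells, 3 in mural cells and 1 in oligodendrocytes, and of the other pathway genes 0 in astrocyte-like cells, 3 in endothelial cells, 3 in mural cells, 0 in oligodendrocytes, 13 in immune cells and 1 between endothelial and mural cells. Over all 14951 genes without the block, 34 were higher and 14 lower in astrocyte-like cells, 388 and 87 in mural cells, and 165 and 43 in oligodendrocytes. In endothelial cells the counts were 892 and 330, in immune cells 1988 and 1995, and between endothelial and mural cells 55 and 77. Stricter gates called 4 of the 10 in astrocyte-like cells, 3 higher and 1 lower, beside 1011 and 522 of 14079 genes. In that class, 3 of the other pathway genes were called under the 10% mitochondrial limit, all higher, beside 611 of 14801 genes. Without high-EGFP cells in other classes 3 were called, all higher, beside 632 of 15058. With no filter on low counts, 8 of the other pathway genes were called in oligodendrocytes, 1 higher and 7 lower, beside 1039 and 1556 of 21694 genes. None of the called genes among the 10 turned its direction in the alternatives run. Each tumour alone gave values for astrocyte-like cells, endothelial cells, oligodendrocytes and immune cells against glioma, and tumour 1 alone gave none for mural cells. Of the log2 fold changes of the 10 genes over all alternatives, 578 kept direction and side of the threshold, 26 lost a call, 5 gained one and 26 moved otherwise. Of the levels, 338 moved by less than the spread used as their error and 22 by more, and of the shares 30 and 30. In mural cells of tumour 2, 3 UMIs are a level of 0.0717.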
